A study of Mus musculus with 10 samples.

Results

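The cadherin genes described here are those whose symbols in the deposited count tables begin with Pcdh, or with Cdh followed by a number. There were 94 such genes among 32531, and 81 of them had at least 10 counts in 3 or more of the 9 pull-down libraries. These 81 were also the family members that entered the tests between groups. The RNA came from whole striatum of adult Drd1-TRAP CP73 mice, which carry an EGFP-tagged ribosomal protein L10a under control of Drd1, the gene of the dopamine D1 receptor. Capture of the tagged ribosomes draws mainly on medium spiny neurons of the direct pathway, and on any other cell in which the transgene is active. The strain is given as FVB/N-Swiss Webster x C57BL/6, with the mice used at least 9 generations into C57BL/6. In a short-access study of intravenous self-administration, 3 pull-downs came from the saline group, 3 from the cocaine group and 3 from the yoked group. One further library was made from unselected striatal RNA and is called the input. A yoked animal in general receives its infusions on the schedule of another animal, but the labels do not say what these mice were given. Whether libraries within a group stem from different animals is not in the labels either, so each p-value reflects the spread between these libraries alone and that spread may be technical.

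Cadherins are calcium-dependent adhesion molecules of the cell surface. Classical cadherins bind the same or a related cadherin on the neighbouring cell and are tied to actin through catenins; in neurons they align synapses and sort cells into layers and nuclei. The clustered protocadherins, in the alpha, beta and gamma arrays, are chosen promoter by promoter, so that each neuron displays its own combination, and like combinations on branches of the same neuron keep those branches apart. Within the alpha and gamma arrays each variable exon is spliced to constant exons shared by the whole array, whereas each beta gene is a single exon with no shared part. The C-type variable exons at the end of the alpha and gamma arrays are regulated differently from the others and are used broadly across neurons. The non-clustered delta protocadherins guide axon growth and synapse formation, and delta-2 members recruit the WAVE complex, which drives actin branching.

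In units of 1e+06 gene counts, pull-down depth ranged from 12.5 to 45.2 and the input had 40.5. Mean depth in these units was 21.4 ± 8.12 for saline libraries, 32.8 ± 0.634 for cocaine libraries and 42.5 ± 3.45 for yoked libraries (SD, n = 3 each). A count of 3, taken as the limit of detection for counting error alone, equals 0.0663 to 0.239 CPM in a pull-down, where CPM stands for counts per 1e+06 counts in genes. Each group was run on a lane of its own, so that lane and group cannot be told apart. The input was on a further lane with no pull-down, so the same holds for every ratio to the input. All 7 markers of D1 neurons stood above the input on average, with a median ratio of 2.27. All 6 markers of D2 neurons, the indirect-pathway medium spiny neurons, lay below the input in every pull-down, with a median ratio of 0.154. Glial RNA was reduced but varied between libraries: the summed level of 8 astrocyte markers was 158 to 467 CPM over the saline pull-downs, 145 to 331 CPM over the cocaine and 156 to 828 CPM over the yoked, against 2192 CPM in the input. The input also held 2682 CPM of pituitary genes, chiefly growth hormone, against 0.420 to 388 CPM in the pull-downs. The 388 CPM was that of saline 1, and no other pull-down exceeded 6.23 CPM.

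Relative to the input, the family as a whole lay close to the average gene, and a few members stood far from it. The ratio to the input is the mean over the 9 pull-downs of log2(CPM + 0.5) minus the same value in the input, and it understates the change of low genes. With 1 input library there is no test of these ratios. The median ratio of the 81 members was 0.914, or -0.13 on the log2 scale, beside -0.04 for all 14716 genes that passed the same count minimum. Only Cdh15 was at least 2-fold above the input in all 9 pull-downs, which is 1 of 81 where 3.25% of all genes were. Pcdh15, Cdh20 and Cdh5 were at least 2-fold below it in all 9, which is 3 of 81 where 8.15% of all genes were. By direction alone, 13 members were above the input in all 9 pull-downs, beside 28.4% of all genes, and 21 were below it in all 9, beside 33.3%. Scaling by TMM over all 10 libraries moved the median of all genes from -0.04 to 0.14 and that of the members from -0.13 to 0.06, so ratios near 1 have no fixed side. The counts by direction changed order with that scaling. Then 18 members lay above the input throughout and 16 lay below, beside 5528 and 3844 of the 14716 genes. Which of these 2 counts is the larger thus depends on the scaling, for the members and for all genes. In bulk pull-downs, fewer cells of a type and less RNA per cell cannot be told apart.

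**Figure D1:**
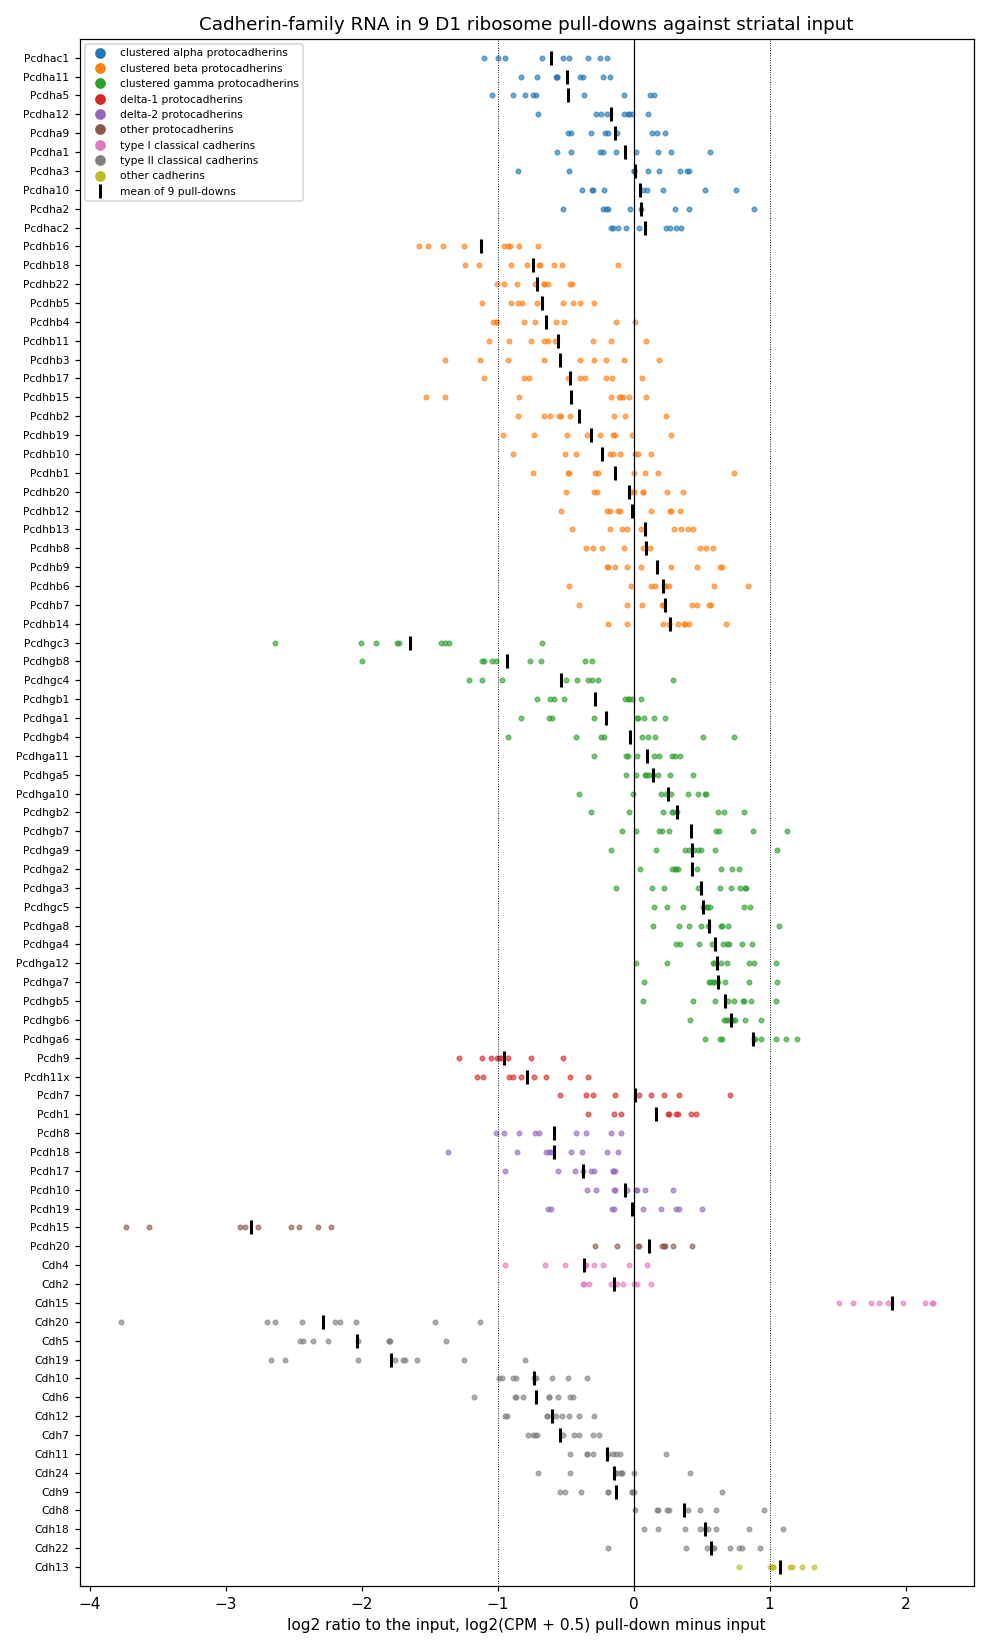
Log2 ratio of each pull-down to the input for the 81 cadherin genes, as log2(CPM + 0.5) in the pull-down minus that in the input, 1 row per gene. Points are the 9 pull-downs, coloured by list, black bars are their means, and dotted lines mark 2-fold. Cdh15 lies beyond the upper line in all 9 pull-downs, most gamma genes lie to the right of 0, and Pcdh15, Cdh20 and Cdh5 lie beyond the lower line throughout.

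The member furthest above the input was Cdh15, or M-cadherin, a type I classical cadherin first described in muscle. Its level was 5.28, 6.23 and 3.98 CPM in the saline pull-downs, 4.62, 6.19 and 5.97 CPM in the cocaine pull-downs and 4.84, 4.41 and 3.67 CPM in the yoked pull-downs. The input had 0.962 CPM from 39 counts, with an exact 95% Poisson interval of 0.684 to 1.32 CPM that covers counting error only. The lowest pull-down lay above the upper end of that interval, and the ratio was 3.72. Pcdh15, the protocadherin of the hair-cell tip link, lay furthest below. It had 1.80, 2.39 and 2.82 CPM in the saline pull-downs, 1.95, 2.51 and 0.901 CPM in the cocaine pull-downs and 1.74, 3.05 and 0.752 CPM in the yoked pull-downs, against 16.1 CPM in the input, a ratio of 0.142. All 9 pull-downs were low, and the groups overlapped. Cdh20, a type II cadherin, had 1.51, 2.16 and 0.299 CPM in the saline pull-downs, 1.89, 1.26 and 1.18 CPM in the cocaine and 1.94, 4.5 and 3.47 CPM in the yoked, against 10.4 CPM in the input, a ratio of 0.206. The 2 highest values were those of yoked 2 and yoked 3.

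Cdh15, Cdh20 and Pcdh15 lie on chromosomes 8, 1 and 10. The 200 bases before their RefSeq transcription start (GRCm38.p6, plus strand) are shown because these 3 genes mark the ends of the range of ratios. They stand at chr8:122848174-122848373 for Cdh15, at chr1:104768320-104768519 for Cdh20 and at chr10:73821667-73821866 for Pcdh15. For Cdh20 and Pcdh15 the start used lies inside the annotated span of the gene, whose first base is 104768340 for Cdh20 and 73096277 for Pcdh15. Capitals mark a GC box, GGGCGG on either strand, the element bound by Sp1-type factors.
Cdh15: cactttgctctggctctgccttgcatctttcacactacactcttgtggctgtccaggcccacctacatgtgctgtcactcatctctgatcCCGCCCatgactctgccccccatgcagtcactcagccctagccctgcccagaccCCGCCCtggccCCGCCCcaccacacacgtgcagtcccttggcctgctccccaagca
Cdh20: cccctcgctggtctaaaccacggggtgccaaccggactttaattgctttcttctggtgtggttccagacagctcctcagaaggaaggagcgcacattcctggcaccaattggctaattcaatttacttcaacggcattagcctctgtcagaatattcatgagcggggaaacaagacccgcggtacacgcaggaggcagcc
Pcdh15: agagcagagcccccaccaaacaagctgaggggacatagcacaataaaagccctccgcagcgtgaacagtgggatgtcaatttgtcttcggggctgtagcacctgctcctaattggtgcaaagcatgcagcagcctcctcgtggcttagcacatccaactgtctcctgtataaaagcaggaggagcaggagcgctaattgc
The Cdh15 sequence held 3 GC boxes and 4 CG dinucleotides, the Cdh20 sequence 0 and 9, and the Pcdh15 sequence 0 and 5. Over the full 250 bases before the start, a GC box was present in 32.7% of 32851 RefSeq promoters and in 9 of the 25 promoters found for family genes (36%). These 25 belong to 22 of the 94 genes, and the clustered protocadherins, most of the family, are not among them. The cAMP response element TGACGTCA, searched on both strands over the same 250 bases, was in 1.55% of all promoters and in 0 of the 25. TATAAA, on either strand, was in 12.4% of all and in 2 of the 25, those of Pcdh15 and Pcdh8. The E-box CANNTG, where N is any base, was in 66.2% of all and in 13 of the 25 (52%). These matches describe the letters only.

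Among the clustered genes, the gamma protocadherins were the list with the most members above the input. All 22 gamma genes passed the count minimum, and 9 of them were above the input in all 9 pull-downs (28.4% of all genes were), with a median log2 ratio of 0.43. The 12 A-type genes had a median log2 ratio of 0.47, with 11 means above the input, and the 7 B-type genes 0.32, with 4 above. Pcdhga6 had 17.0, 14.1 and 21.2 CPM in the saline pull-downs, 14.3, 13.1 and 17.6 CPM in the cocaine and 20.0, 19.0 and 16.9 CPM in the yoked, against 8.91 CPM in the input. Every pull-down of Pcdhga6 was above the input and the ratio was 1.84. The next highest ratios were 1.64 for Pcdhgb6, 1.60 for Pcdhgb5 and 1.54 for Pcdhga7. Not all gamma genes followed: Pcdhgb8 had 1.42 ± 0.603 CPM (SD, n = 9) against 2.99 CPM in the input, a ratio of 0.525. The A-type genes Pcdhga3 and Pcdhga5 had 13.6 ± 3.11 and 13.2 ± 1.42 CPM, against 9.21 and 11.9 CPM in the input.

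The 3 C-type gamma genes differed from each other. Pcdhgc5 was the gamma gene with the highest CPM, at 92.2, 60.5 and 89.7 CPM in the saline pull-downs, 74.1, 56.4 and 74.1 CPM in the cocaine and 75.4, 72.6 and 65.5 CPM in the yoked, against 50.8 CPM in the input. All 9 values were above the input, with a ratio of 1.42. Pcdhgc3 had 7.25, 9.58 and 5.94 CPM in the saline pull-downs, 9.40, 7.30 and 6.47 CPM in the cocaine and 9.17, 15.7 and 3.65 CPM in the yoked, against 25.3 CPM in the input. All 9 values were below the input, with a ratio of 0.319, and yoked 2 was the highest. Pcdhgc4, which is needed for survival of many neurons, had 1.60 ± 0.701 CPM (SD, n = 9) against 2.39 CPM. Pcdhgc5 made up 25.7% to 31.3% of the gamma counts of a pull-down and 24.6% of those of the input, and Pcdhgc3 made up 1.57% to 5.58% and 12.2%. The share of Pcdhgc3 was highest in yoked 2 and lowest in yoked 3, the yoked libraries with the highest and the lowest astrocyte marker sums (828 and 156 CPM); the part of glial RNA in this was not tested. Reads in the shared constant exons match more than 1 gamma gene, and how the authors' counting treated them is not given in the sources used here, so levels of alpha and gamma genes are uncertain and are not compared per length.

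The alpha protocadherins stayed near the input. The alpha list held 16 gene symbols, and 2 of them, Pcdha6-g and Pcdha7-g, had no RefSeq match. Of the 16, 10 passed the count minimum. Of these 10, 0 were above the input in all 9 pull-downs (28.4% of all genes were) and 2 were below (33.3% of all genes were). Their median log2 ratio was -0.10, or 0.0041 with TMM scaling. Pcdhac2, a C-type gene, was the alpha gene with the highest CPM, at 16.6 ± 2.50 CPM (SD, n = 9) against 15.5 CPM in the input. It made up 57.5% to 72.5% of the alpha counts of a pull-down and 58.2% of those of the input. The other C-type gene, Pcdhac1, had 0.864 ± 0.309 CPM against 1.53 CPM, a ratio of 0.656. Pcdha12 had 2.25 ± 0.407 CPM against 2.54 CPM, Pcdha5 1.85 ± 0.765 against 2.64 CPM and Pcdha3 0.899 ± 0.354 against 0.839 CPM. Pcdha4, Pcdha6, Pcdha6-g and Pcdha7 had 0 counts in all 10 libraries. Reads that match more than 1 alpha gene may be missing from these counts, so 0 counts need not mean absent RNA. The gene just inside the count minimum was Pcdha1, whose third-highest pull-down had 12 counts, and the ones just outside were Pcdha8 with 9 and Pcdha7-g with 4.

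The beta protocadherins lay somewhat below the input, with a median log2 ratio of -0.31 over 21 genes. None was above the input in all 9 pull-downs (28.4% of all genes were) and 4 were below (33.3% of all genes were). Pcdhb16 had the lowest ratio of the list, 0.460, with 15.3, 9.58 and 16.2 CPM in the saline pull-downs, 14.99, 10.02 and 10.8 CPM in the cocaine, 12.1, 15.5 and 17.9 CPM in the yoked and 29.5 CPM in the input. All of its pull-downs were below the input. In contrast, Pcdhb13 and Pcdhb20 had ratios of 1.06 and 0.976, and Pcdhb14 had the highest of the list at 1.20. Because each beta gene is a single exon, its level can be set per kilobase of annotated span, which ran from 2340 to 5271 bases. The 21 means then spread over 13.4-fold, from 0.296 ± 0.169 CPM per kb for Pcdhb1 to 3.95 ± 1.003 CPM per kb for Pcdhb17 (SD, n = 9), followed by 3.46 ± 0.620 for Pcdhb14, 3.13 ± 0.662 for Pcdhb13 and 2.58 ± 0.572 for Pcdhb16. All 20 neighbours in this order overlapped in their ranges over the 9 pull-downs. Along the array, the 12 genes from Pcdhb1 to Pcdhb12 had mean levels of 0.296 to 1.37 CPM per kb, whereas 8 of the 9 from Pcdhb13 to Pcdhb22 had 1.55 to 3.95 CPM per kb, the exception being Pcdhb15 at 0.996. The split along the array, noticed in these values, was also present in the input, where the first 12 reached at most 1.16 CPM per kb and the other 9 had 1.32 to 5.60. Beta genes resemble each other closely in sequence, and reads that align to more than one of them may be missing from these counts.

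**Figure D2:**
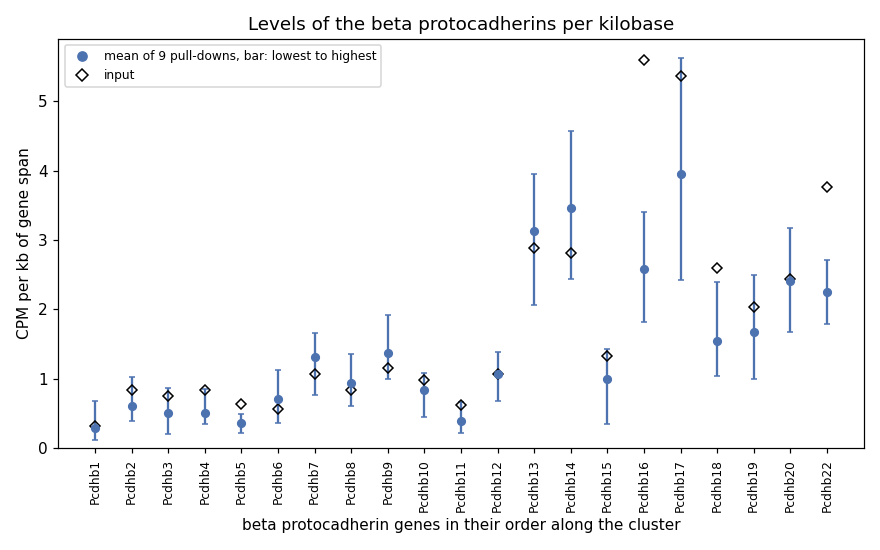
Levels of the 21 beta protocadherins in CPM per kilobase of gene span, in their order along the array. Filled points are means of the 9 pull-downs with bars from the lowest to the highest library, and open diamonds are the input. Genes from Pcdhb13 on, apart from Pcdhb15, lie above those before it, and Pcdhb16 is the highest in the input and the fourth in the pull-downs.

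The non-clustered delta protocadherins ranged from members with more than 100 CPM, Pcdh10 and Pcdh17, to Pcdh8 and Pcdh18, whose means over the pull-downs were 1.89 ± 0.569 and 2.47 ± 0.703 CPM (SD, n = 9), with 2.99 and 3.83 CPM in the input. Pcdh10, a delta-2 protocadherin that acts in axon outgrowth and synapse elimination, had 148, 127 and 188 CPM in the saline pull-downs, 156, 121 and 139 CPM in the cocaine and 139, 156 and 163 CPM in the yoked, against 154 CPM in the input. Its values lay on both sides of the input and its ratio was 0.960. Pcdh17, a delta-2 protocadherin of corticostriatal and striatal synapses, had 151, 169 and 167 CPM in the saline pull-downs, 143, 137 and 96.2 CPM in the cocaine and 126, 167 and 149 CPM in the yoked, against 185 CPM in the input. All 9 of its values were below the input, with a ratio of 0.773. With TMM scaling over the 10 libraries, 0 of the 5 delta-2 members, Pcdh17 included, were below the input in all 9. Pcdh19, the gene of an X-linked epilepsy, had 18.5 ± 5.01 CPM against 18.02 CPM (SD, n = 9). Of the delta-1 list, Pcdh9 had 62.3, 54.5 and 70.2 CPM in the saline pull-downs, 59.0, 48.4 and 60.2 CPM in the cocaine and 57.2, 59.4 and 82.5 CPM in the yoked, against 119 CPM in the input. It was below the input in all 9 pull-downs, with a ratio of 0.516. Pcdh7 and Pcdh1, of the same list, had 81.2 ± 22.8 and 93.4 ± 17.1 CPM, against 77.9 and 82.0 CPM in the input. Pcdh20, of neither delta list, had 5.43 ± 0.879 CPM against 4.91 CPM.

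Classical cadherins ranged from Cdh15, far above the input, to type II members far below it. N-cadherin, Cdh2, the main type I cadherin of synapses, had 31.9 ± 4.07 CPM against 35.0 CPM in the input, and R-cadherin, Cdh4, had 13.4 ± 2.91 CPM against 17.1 CPM (SD, n = 9). Of the 13 type II cadherins, 7 were below the input in all 9 pull-downs (33.3% of all genes were) and 2 above (28.4% of all genes were), and the median log2 ratio was -0.54. Cdh8 was the type II cadherin with the highest CPM, at 92.9, 84.2 and 98.5 CPM in the saline pull-downs, 107, 70.8 and 79.4 CPM in the cocaine and 83.2, 79.3 and 137 CPM in the yoked, against 70.1 CPM in the input. All 9 were above the input, and yoked 3 was the highest. The lowest, cocaine 2, lay inside the 95% Poisson interval of the input, 67.6 to 72.8 CPM. Cdh11 and Cdh9 had 42.3 ± 6.40 and 35.6 ± 10.2 CPM, against 48.1 and 37.9 CPM. VE-cadherin, Cdh5, the adhesion molecule of endothelial junctions, was at 0.248 ± 0.197 CPM against 2.47 CPM (100 counts), a ratio of 0.245. Cdh19, known from glia of peripheral nerve, was at 0.584 ± 0.442 CPM against 2.96 CPM, a ratio of 0.291. Cdh5 passed the count minimum narrowly, with 12 counts in its third-highest pull-down.

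Markers of glia and vessels were low in the pull-downs as well. The median ratio was 0.331 for the 8 endothelial and mural markers, 0.140 for the 8 oligodendrocyte markers and 0.124 for the 6 markers of oligodendrocyte precursors, and all of them had means below the input. No marker of these lists was at 0 in all 9 pull-downs. The 8 markers of cortical glutamatergic neurons were divided, with a median ratio of 1.75 and 5 means above the input. The other 3 were below it, with ratios of 0.057 for Rorb, 0.144 for Slc17a6 and 0.837 for Emx1. The summed level of the 8 was below the input in every pull-down, at 33.3 to 125 CPM against 167 CPM. Rorb alone had 123 CPM in the input. The part of these other cells in the ratios of Cdh5, Cdh19, Cdh20, Pcdh15 and Pcdhgc3 was not tested.

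T-cadherin, Cdh13, which is anchored in the membrane by a lipid and has no cytoplasmic tail, had the highest CPM of the whole family in the pull-downs. It had 239, 206 and 226 CPM in the saline pull-downs, 255, 204 and 207 CPM in the cocaine and 228, 205 and 174 CPM in the yoked, against 101 CPM in the input (95% Poisson interval 98.3 to 104). All 9 values were above the input, with a ratio of 2.11, and yoked 3 was the lowest. The input count of 4106 leaves little counting error in this ratio. The cadherins of the retina and inner ear (Cdh23), of epithelium (Cdh1), of placenta (Cdh3), of kidney (Cdh16) and of liver and intestine (Cdh17) did not reach the count minimum, nor did Cdh26 and the endothelial Pcdh12. Cdh1, Cdh23, Cdh26 and Pcdh12 had 19, 22, 19 and 11 counts in the input and 12, 43, 5 and 8 counts over all 9 pull-downs.

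**Figure D3:**
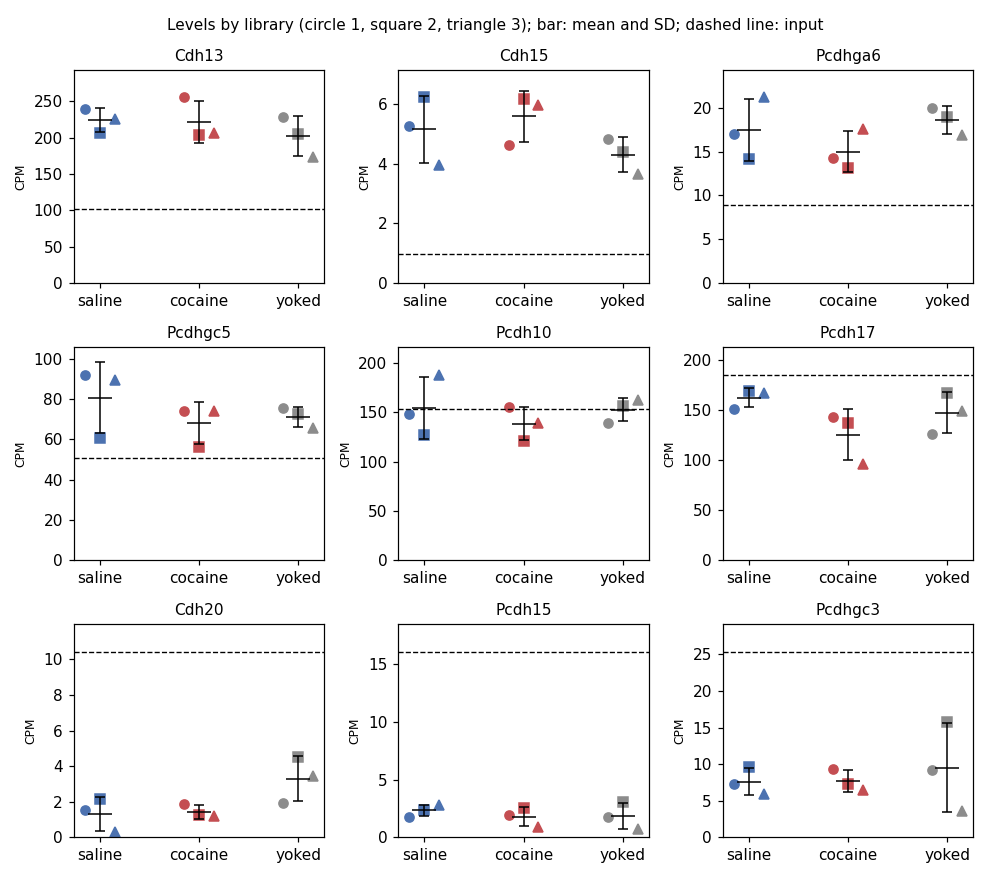
Levels of 9 cadherin genes in CPM by library, grouped as saline, cocaine and yoked. Circles, squares and triangles are libraries 1, 2 and 3, horizontal bars with whiskers are the group mean and SD (n = 3), and the dashed line is the input; the groups of Cdh13, Cdh15 and Pcdh10 overlap, and the cocaine libraries of Pcdh17 lie below the saline libraries.

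Of the 81 members, 0 passed an adjusted p of 0.05 in any of the 3 pairs of groups (edgeR, quasi-likelihood, Benjamini-Hochberg over 14680 genes). The background was the same, with 0% of all genes called in each comparison. DESeq2 called 0 members in each comparison, and 0.00681% of all genes, which is 1 gene, in cocaine against saline. Fold changes below are edgeR log2 values with their standard errors. The comparisons share groups, so they are not independent of each other.

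The first comparison, cocaine against saline self-administration, concerns animals that worked for the drug and animals that worked for vehicle. The smallest adjusted p of a member was 0.999 (edgeR). Of the 81 members, 52 had lower and 29 higher fitted levels in the cocaine group, with 49.4% of all genes lower. The median log2 fold change was -0.11, beside 0.0036 for all genes, and the median standard error of a member was 0.27. That split depended on single libraries. The share of members lower was 51.9% without cocaine 2 and 50.6% without saline 3, in place of 64.2%. It was 76.5% without cocaine 1 and 74.1% without saline 2. At an unadjusted p under 0.05 there was 1 member, Pcdhga9, with 2.84% of all genes. Pcdhga9 had 12.1, 10.3 and 16.8 CPM in the saline pull-downs and 11.04, 6.91 and 8.83 CPM in the cocaine pull-downs, a log2 fold change of -0.51 ± 0.23 (SE), which was -0.25 without saline 3. The saline and cocaine values overlapped.

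On the TMM-scaled values, 4 of 81 members had every cocaine library below every saline library, with 5.08% of all genes, and 0 had every one above, with 6.38%. Non-overlap is judged on TMM-scaled values throughout, and levels are printed as plain CPM. They were Cdh7, Pcdh17, Pcdhb18 and Pcdhb5. Cdh7, a type II cadherin, had 26.0, 22.3 and 26.9 CPM in the saline pull-downs and 19.3, 19.4 and 19.0 CPM in the cocaine, a log2 fold change of -0.33 ± 0.16 (SE). The 3 cocaine values were close together, and those of the yoked group were 24.2, 18.5 and 23.6 CPM. Pcdh17, with the values given above, had a log2 fold change of -0.32 ± 0.16 (SE), which was -0.18 without cocaine 3, its lowest library. Pcdhb18 had 8.91, 7.90 and 8.55 CPM in the saline pull-downs and 6.75, 5.23 and 5.66 CPM in the cocaine, a log2 fold change of -0.47 ± 0.23 (SE). Pcdhb14 had 11.7, 12.7 and 15.7 CPM in the saline and 12.2, 8.40 and 9.33 CPM in the cocaine pull-downs, and the groups overlapped. By list, 17 of 22 gamma genes, 14 of 21 beta genes and 5 of 10 alpha genes had lower fitted levels in the cocaine group, with median log2 fold changes of -0.15, -0.16 and 0.04. Without cocaine 2 these counts were 14, 13 and 3. With the libraries left out one at a time they ranged from 14 to 22, from 12 to 18 and from 3 to 7.

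Cocaine against yoked gave the same picture with more members on the lower side. The smallest adjusted p of a member was 0.974 (edgeR). Lower fitted levels in the cocaine group were found for 63 members and higher for 18, with 54.5% of all genes lower, and the median log2 fold change was -0.17, beside -0.03 for all genes. Without cocaine 2 the share of members lower was 59.3% in place of 77.8%, and the median was -0.04. Without cocaine 1 the share was 81.5%. At an unadjusted p under 0.05 there were 6 members, 5 lower and 1 higher, with 2.58% of all genes. All cocaine values were below all yoked values for 5 of 81 members, with 3.34% of all genes, and above for 1, with 3.42%. By list, 19 of 22 gamma genes, 17 of 21 beta genes, 6 of 10 alpha genes and 11 of 13 type II cadherins had lower fitted levels in the cocaine group. Without cocaine 2 the counts were 12, 13, 4 and 10, and without yoked 3 those of the beta genes and type II cadherins were 12 and 7. With the libraries left out one at a time the 4 counts ranged from 12 to 20, from 12 to 18, from 4 to 7 and from 7 to 11.

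Pcdhb18 had the smallest p of this comparison, with 6.75, 5.23 and 5.66 CPM in the cocaine pull-downs and 7.38, 7.87 and 12.05 CPM in the yoked. Its log2 fold change was -0.63 ± 0.23 (SE), or -0.34 without yoked 3, and the saline values of 7.90 to 8.91 CPM lay within the yoked range. Pcdhgb1 had 3.92, 3.56 and 4.17 CPM in the cocaine pull-downs and 5.96, 5.85 and 6.08 CPM in the yoked, a log2 fold change of -0.61 ± 0.24 (SE). The yoked values were tightly grouped, but saline 2, at 3.83 CPM, lay among the cocaine values. Cdh22, a type II cadherin of brain and pituitary, was the member above without overlap after TMM scaling, with 10.8, 8.40 and 9.79 CPM in the cocaine and 8.44, 7.23 and 4.71 CPM in the yoked pull-downs. Before that scaling its lowest cocaine and highest yoked values cross. Its log2 fold change was 0.53 ± 0.22 (SE), or 0.34 without yoked 3, its lowest library.

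Pcdhb17 had 13.6, 10.1 and 7.93 CPM in the cocaine pull-downs and 12.4, 15.6 and 18.4 CPM in the yoked, which overlapped. Cdh20 had 1.89, 1.26 and 1.18 CPM in the cocaine pull-downs and 1.94, 4.5 and 3.47 CPM in the yoked, with a log2 fold change of -1.19 ± 0.52 (SE). The highest cocaine and the lowest yoked library of Cdh20 were nearly equal. In this comparison all 8 astrocyte markers, all 8 oligodendrocyte markers, all 6 precursor markers and all 6 markers of D2 neurons also had lower fitted levels in the cocaine group, with summed oligodendrocyte marker levels of 239 to 498 CPM in the cocaine pull-downs and 203 to 1030 CPM in the yoked. The highest of the yoked sums was that of yoked 2 and the lowest that of yoked 3. The part of this RNA of other cells in the members' differences was not tested.

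Yoked against saline showed more members on the higher side. The smallest adjusted p of a member was 0.999 (edgeR). Higher fitted levels in the yoked group were found for 49 members and lower for 32, with 55% of all genes higher, and the median log2 fold change was 0.11, beside 0.03 for all genes. The median changed sign when saline 2 or yoked 3 was left out, to -0.01 and -0.05. At an unadjusted p under 0.05 there was 1 member, Cdh20, with 1.84% of all genes. Its saline values of 1.51, 2.16 and 0.299 CPM and yoked values of 1.94, 4.5 and 3.47 CPM overlapped, and the log2 fold change was 1.43 ± 0.54 (SE), or 0.94 without saline 3. All 8 astrocyte, 8 oligodendrocyte and 6 precursor markers had higher fitted levels in the yoked group as well, but yoked 3 did not share this. The astrocyte sums were 358, 828 and 156 CPM in yoked 1, 2 and 3, against 158 to 467 CPM in the saline pull-downs. In the same order, the oligodendrocyte sums were 515, 1030 and 203 CPM, against 249 to 667 CPM. The precursor sums were 24.6, 78.0 and 4.73 CPM, against 11.9 to 39.4 CPM. Among the saline libraries, saline 3 was lowest in Cdh20 and in each of these 3 marker sums. Among the yoked libraries, yoked 3 was lowest in all 3 sums, yet its Cdh20 level of 3.47 CPM was above the 1.94 CPM of yoked 1. The part of glial RNA in the Cdh20 difference was not tested. All 7 tested markers of cortical glutamatergic neurons also had higher fitted levels in the yoked group, with summed levels of 33.3 to 86.1 CPM in the saline pull-downs, 37.3 to 125 CPM in the yoked and 167 CPM in the input, and their part was likewise not tested.

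All yoked values were above all saline values for 3 of 81 members, Pcdha12, Pcdhgb5 and Pcdhgb8, with 3.3% of all genes, and below for 0, with 3.39%. Pcdhgb5 had 5.24, 3.91 and 4.79 CPM in the saline and 5.44, 5.21 and 4.95 CPM in the yoked pull-downs, which are apart only after TMM scaling. Pcdhgb8 had 1.13, 1.20 and 1.11 CPM in the saline pull-downs and 1.55, 2.23 and 2.32 CPM in the yoked, a log2 fold change of 0.88 ± 0.48 (SE), and the cocaine values of 0.373 to 1.67 CPM ran across both. Pcdhga7 had 23.9, 20.7 and 16.8 CPM in the saline pull-downs and 17.5, 18.2 and 11.8 CPM in the yoked. Cdh22 had 9.65, 8.14 and 9.19 CPM against 8.44, 7.23 and 4.71 CPM, and Cdh2 had 35.0, 27.1 and 27.8 CPM against 31.1, 35.7 and 38.3 CPM. The groups overlapped for Pcdhga7, Cdh22 and Cdh2.

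**Figure D4:**
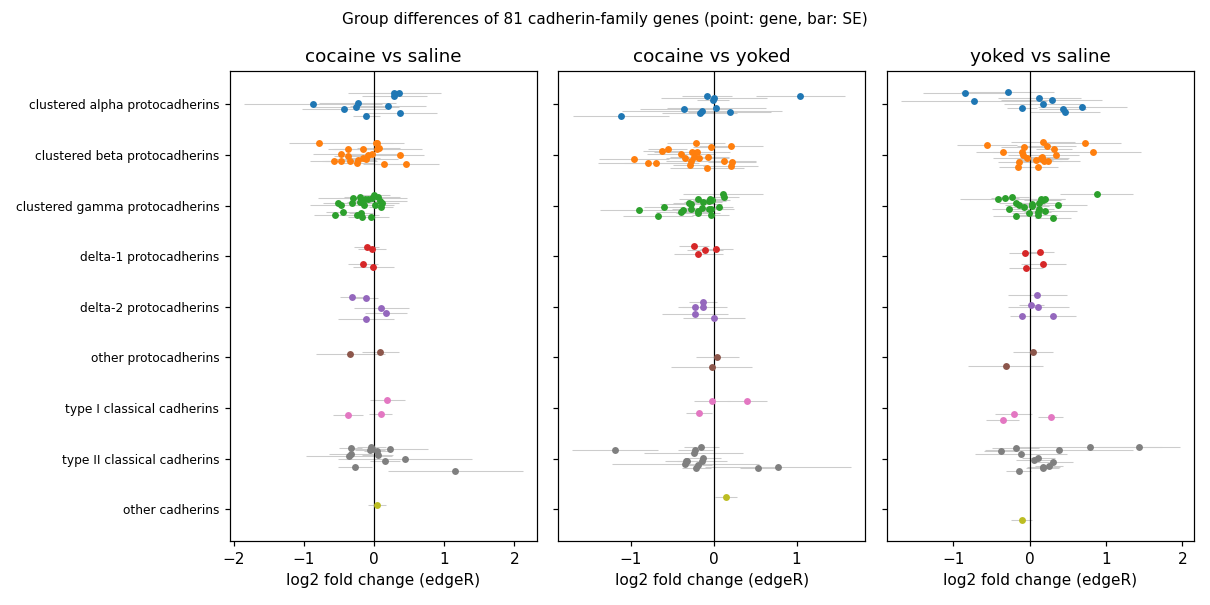
Log2 fold changes of the 81 cadherin genes from edgeR in the 3 comparisons, by list. Points are genes, grey bars are standard errors and the vertical line is 0; most points lie within 1 of 0, and 52, 63 and 32 of the 81 lie below 0 in the left, middle and right panel.

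The 2 highest members of the family kept similar levels across the groups. Cdh13 had 224 ± 16.6 CPM in the saline, 222 ± 28.8 CPM in the cocaine and 202 ± 27.0 CPM in the yoked group (SD, n = 3 each), with log2 fold changes of 0.04 ± 0.13 for cocaine against saline and 0.15 ± 0.13 for cocaine against yoked (SE). Pcdh10 had 154 ± 31.2, 139 ± 17.1 and 153 ± 12.1 CPM (SD, n = 3 each), with log2 fold changes of -0.11 ± 0.17 and -0.13 ± 0.17 (SE). Summed over all 94 genes, the family took 1571 ± 184 CPM in the saline, 1420 ± 180 CPM in the cocaine and 1547 ± 88.0 CPM in the yoked group, against 1535 CPM in the input. The ranges of the 3 groups overlapped.

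Genes that act with the cadherins were grouped in 4 lists. Of 16 catenins and other cadherin-bound proteins, 9 were below the input in all 9 pull-downs (33.3% of all genes were) and 3 above (28.4% of all genes were), with a median log2 ratio of -0.50. The list differed within itself: delta-catenin, Ctnnd2, which binds the cadherin tail in neurons, had 452 ± 49.4 CPM against 411 CPM in the input, and beta-catenin, Ctnnb1, which links cadherins to alpha-catenin, had 240 ± 32.8 CPM against 168 CPM (SD, n = 9). Of 15 genes of protocadherin partners and the WAVE complex, 8 were above the input in all 9 pull-downs (28.4% of all genes) and 2 below (33.3%). Cyfip2 and Nckap1, subunits of the WAVE complex, had 1546 ± 170 and 1164 ± 136 CPM, against 1150 and 753 CPM. Of 11 regulators of promoter choice in the clusters, 0 were above the input in all 9 pull-downs (28.4% of all genes) and 4 below (33.3%). With TMM scaling over the 10 libraries these counts were 3 and 2, beside 5528 and 3844 of the 14716 genes. The highest were Ctcf, which binds and loops the cluster promoters, at 106 ± 11.3 CPM, and the cohesin subunit Rad21 at 104 ± 10.5 CPM. Of 14 other genes of the cadherin superfamily, 9 were below and 3 above, to be read against the same 33.3% and 28.4%. None of these genes was called in any comparison by edgeR.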

How the data were processed

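TRAP-seq libraries of 9 pull-downs and 1 input were analysed from whole-number read counts per gene symbol, which the authors deposited as raw counts. The submitters' processing notes name STAR 2.0.0e, HTSeq and the build mm10, with the counting mode and use of strand not given in the sources used here. Overlapping and antisense genes cannot be told apart. In each file 6 rows naming no gene were left out. The next shares are of reads placed in 1 gene, in more than 1 gene or in no gene. Reads overlapping more than 1 gene were 2.54% to 3.03% of these in a pull-down and 6.63% in the input. Reads in no gene were 12.3% to 16.1% and 27.6%. Reads aligned to more than 1 place are not part of these shares.

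CPM is per 1e+06 gene counts. Groups were compared with edgeR 4.0.16 (R 4.3.3; TMM, quasi-likelihood test, low-count filter, all 9 pull-downs, group as the only term), checked on simulated data. Standard errors are the fold change over the root of its F statistic. DESeq2 1.42.0, other scalings and filters, other pseudocounts and leaving out libraries were the alternatives. RefSeq matched 92 of 94 genes. Named genes are, in each list, the 3 (clustered lists, 5) with the highest CPM, the 6 highest and 6 lowest ratios to the input, the 5 smallest p per comparison and those at the count minimum; others named were chosen after their values were seen. Members and lists were chosen with earlier results of these data known.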

Additional observations from a re-analysis of the deposited data

How the results depend on the processing

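No member was called in any comparison under any alternative run, the replicate block included (0 called in each). The 240 alternative fold changes of named members cover only the 5 members with the smallest p in each comparison. All 240 kept their sign, though not their size (Pcdhb18 in cocaine against yoked ranged from -0.77 to -0.34 with a library left out). Members picked for a small p in these same data tend to keep their sign, so this lends no weight to their differences. With the libraries left out one at a time, the members' median log2 fold change ranged from -0.18 to -0.0064 in cocaine against saline, from -0.25 to -0.041 in cocaine against yoked and from -0.054 to 0.14 in yoked against saline. It was -0.041 in cocaine against yoked without cocaine 2, and -0.014 and -0.054 in yoked against saline without saline 2 and without yoked 3. The median log2 ratio to the input ranged from -0.12 to -0.069 with a library left out and was 0.058 with TMM over the 10 libraries. Members at least 2-fold below the input were 3 to 5 with a library left out (5 without yoked 2, adding Cdh19 and Pcdhgc3) and 1 with a pseudocount of 2 CPM, where Pcdh15 remained. Members at least 2-fold above were 1 to 2 with a library left out, 2 with TMM scaling and 2 without the libraries numbered 3 (adding Cdh13 each time), and 0 with a pseudocount of 2 CPM. Deviations of same-numbered libraries correlated at -0.017 to 0.25, with 6 of 9 pairs over 0.1 and those numbered 1 under it, so the rule that every pair exceed 0.1 was not met; 7 of 9 libraries deviated most like one of their own number, a hint from the data and not from the design. Depth limits members of few counts, such as Cdh5 and Pcdha1, and the single input library gives no error for any ratio; these causes of change were not tested.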
